A study of Arabidopsis thaliana with 4 samples.

Results

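The genes described are 10 plasma membrane and tonoplast aquaporins of Arabidopsis thaliana, taken by their loci from the 8346 genes of the table, and all 10 had reads. Aquaporins are membrane channels for water and, in some members, other small neutral solutes. The PIP proteins sit in the plasma membrane and the TIP proteins in the tonoplast, the membrane of the vacuole, so that water entering a plant cell commonly passes both kinds. Work in maize has shown that PIP1 proteins depend on PIP2 partners to reach the plasma membrane. In RefSeq's annotation they are PIP1A (AT3G61430, systematic name PIP1;1), PIP1B (AT2G45960, PIP1;2), PIP1C (AT1G01620, PIP1;3), PIP1;4 (AT4G00430), PIP2A (AT3G53420, PIP2;1), PIP2B (AT2G37170, PIP2;2), PIP3 (AT4G35100, PIP2;7), GAMMA-TIP (AT2G36830, TIP1;1), TIP2 (AT3G26520, TIP1;2) and DELTA-TIP (AT3G16240, TIP2;1). RefSeq symbols are used below, so that TIP2 is the gene whose systematic name is TIP1;2.

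The libraries were TAIL-seq libraries, in which an adapter is ligated to RNA 3′ ends and both the A tract and any bases added after it are read. They came from total RNA of seedlings 2 weeks old, grown on soil with 16 h light and 8 h darkness, and there was 1 library for each genotype: the double mutant urt1-1 xrn4-3 (urt1 xrn4), xrn4-3 (xrn4), urt1-1 (urt1) and WT, whose ecotype label is Col0. URT1 is the uridylyltransferase that adds U to shortened tails of Arabidopsis mRNAs, and XRN4 is a cytoplasmic exoribonuclease that degrades decapped mRNA in the 5′ to 3′ direction. The urt1 allele is labelled Salk_087647C and the xrn4 allele SALK_014209. A uridylated tail is here a tail whose added bases are U, with or without A. The table holds A tracts of 4 to 30 nt, so read counts compare genes among short-tailed 3′ ends and do not give mRNA levels. Each read is 1 end, and no division by transcript length was made. In bulk seedlings, fewer cells of a type and less RNA per cell cannot be told apart.

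The aquaporins gave 413 of 26300 reads in urt1 xrn4, 75 of 9797 in xrn4, 587 of 43391 in urt1 and 115 of 10304 in WT. All 10 genes were seen in urt1 xrn4 and in urt1, while PIP1A had no read in xrn4 and PIP2B none in WT. URT1 and XRN4 had 0 reads in every library, which allows up to 114 CPM (reads scaled to a library total of 1000000 table reads) in urt1 xrn4, 306 CPM in xrn4, 69.1 CPM in urt1 and 291 CPM in WT, so the genotype labels could not be checked on them. The 4 green-tissue markers RBCS1A, RCA, CAB1 and CAB3 had reads in every library and summed to 29468 CPM in urt1 xrn4, 52363 CPM in xrn4, 36090 CPM in urt1 and 43672 CPM in WT. Of the 3 root markers PYK10 had 7, 2, 11 and 4 reads in that order of libraries, and BGLU21 and BGLU22 had none. With 1 library a genotype there is no replicate error and no test of genotype. The intervals given are 95% intervals of counting (exact Clopper-Pearson for a share, Newcombe's for a difference of shares, exact conditional binomial for a ratio of read shares). They cover counting error only, and reads without molecular identifiers are not independent molecules.

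The tails below show in letters what the values then count, a run of A that is bare or ends in added bases. Each was the most frequent tail of the gene in the library named, or its most frequent uridylated form, ties included. The A tract is in lower case and added bases are in capitals, written 5′ to 3′ as the table's A length and extension give them.
TIP2, urt1 xrn4, 16 of 163 tails: aaaaaaaaaaaaaaaaa
TIP2, urt1 xrn4, 6 of 163 tails: aaaaaaaaaaaaaaU
TIP2, urt1, 20 of 220 tails: aaaaaaaaaaaaaaaa
TIP2, urt1, 6 of 220 tails: aaaaaaaaaaaaaaUU
TIP2, WT, 5 of 23 tails: aaaaaaaaaaaaUU
DELTA-TIP, xrn4, 6 of 18 tails: aaaaaaaaaaaaaaUU
DELTA-TIP, urt1 xrn4, 10 of 77 tails: aaaaaaaaaaa
DELTA-TIP, WT, 5 of 34 tails: aaaaaaaaaaaaaaaaaa
PIP3, WT, 3 of 15 tails: aaaaaaaaaaaaaUU
PIP1C, urt1 xrn4, 6 of 57 tails: aaaaaaUU
PIP2A, xrn4, 5 of 9 tails: aaaaGGG
The most frequent TIP2 tail in WT ended in UU, whereas in urt1 and in urt1 xrn4 it was a bare A tract. DELTA-TIP was the other way round between xrn4, whose most frequent tail ended in UU, and WT, whose most frequent tail was bare.

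Within a subfamily the genes were more alike in coding sequence than at the 3′ ends of their transcripts. Each protein carries 2 Asn-Pro-Ala motifs, the signature that lines the aquaporin pore. The codons of the first motif are shown in capitals within 30 coding bases of the RefSeq TAIR10.1 models, on the coding strand, for 4 genes to which the results return.
TIP2: ggtggccacgttAACCCTGCCgttaccttc
DELTA-TIP: ggtggccatgtgAACCCAGCCgtcactttt
PIP1C: ggtgggcacataAACCCAGCGgtgacattt
PIP3: ggtggtcacattAACCCAGCTgtgactttc
Coding identity was 81.4% between GAMMA-TIP and TIP2 and between 81.1% and 87.6% among the PIP1 genes, while PIP and TIP genes shared between 52.7% and 55.2%. Over the last 100 bases of the annotated transcripts, no member was more than 60.3% identical to another aquaporin. PIP2B is 94.8% identical in coding sequence to RD28 (PIP2;3), which had 0 reads.

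Summed over the libraries, tails of the tonoplast genes made up most of the aquaporin reads. In WT the 2 kinds were about equal, with 58 reads of TIP genes and 57 of PIP genes. TIP2, annotated as a salt-stress inducible tonoplast protein, gave 431 of the 1190 aquaporin reads over the 4 libraries, DELTA-TIP 265 and PIP1C 136, while PIP1A gave 18 and PIP2B 21. TIP2 was 39.5% of the aquaporin reads in urt1 xrn4 (34.7 to 44.4), 33.3% in xrn4 (22.9 to 45.2), 37.5% in urt1 (33.5 to 41.5) and 20% in WT (13.1 to 28.5). The gene with the most tails was TIP2 in urt1 xrn4, xrn4 and urt1, and DELTA-TIP in WT (34 of 115, 29.6%). Pooled uridylation, A-tract and read-share differences are therefore given below also without TIP2.

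Uridylated tails of the 10 genes together were 78 of 413 in urt1 xrn4 (18.9%, 15.2 to 23.0), 23 of 75 in xrn4 (30.7%, 20.5 to 42.4), 55 of 587 in urt1 (9.37%, 7.14 to 12.0) and 39 of 115 in WT (33.9%, 25.3 to 43.3). The share was lowest in urt1, next in urt1 xrn4, and higher in xrn4 and WT, whose intervals overlap. Over all genes it was 13.4% in urt1 xrn4, 40.2% in xrn4, 6.87% in urt1 and 31.7% in WT. The 2 lanes of the flow cell gave the aquaporins 19.8% and 18.0% in urt1 xrn4, 29.7% and 31.6% in xrn4, 8.62% and 10.1% in urt1, and 33.3% and 34.4% in WT. Lanes share a library, so this is no replicate of the plants.

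**Figure D1:**
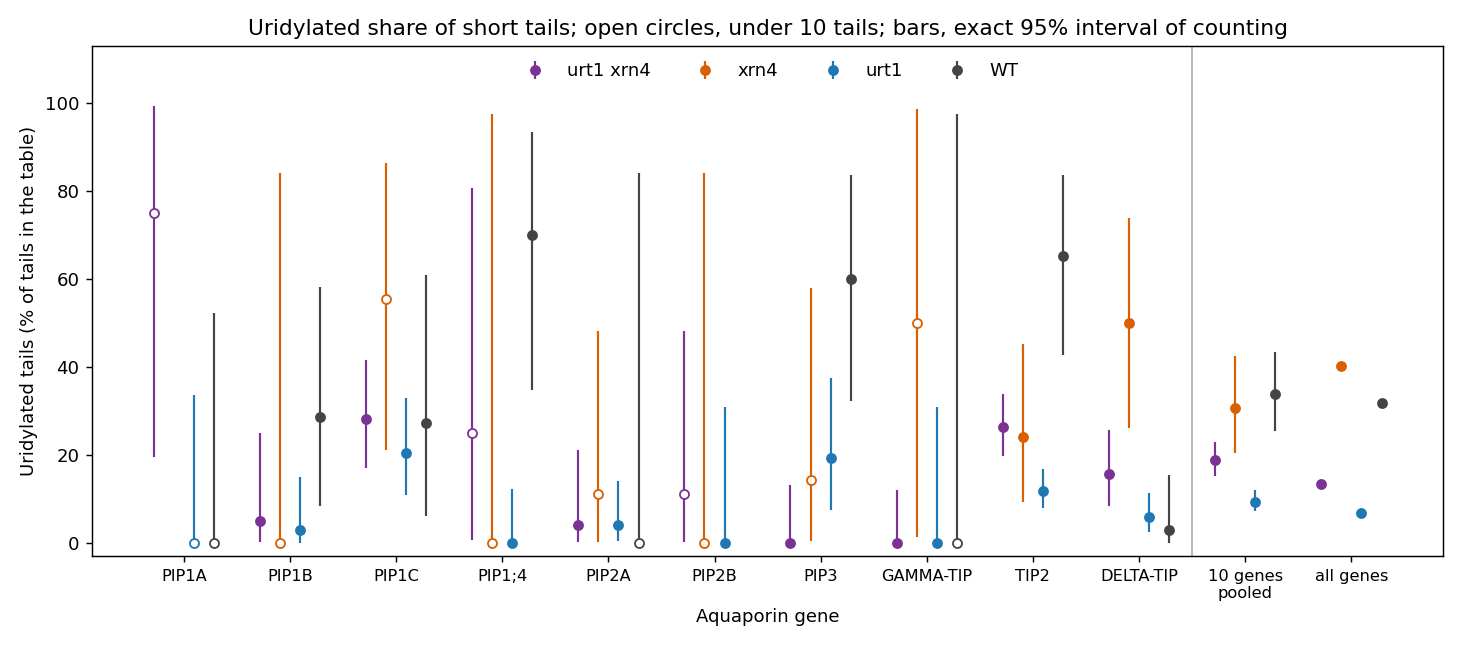
Uridylated tails as percent of a gene's tails (y axis) for the 10 aquaporins, their pool and all genes (x axis), with 1 point per library in the order urt1 xrn4, xrn4, urt1, WT. Lines are exact 95% intervals of counting and open circles mark fewer than 10 tails. TIP2, PIP3 and PIP1;4 reach 60% to 70.0% in WT, while DELTA-TIP stands at 50% in xrn4 and 2.94% in WT.

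In urt1 against WT, the comparison that asks what loss of the uridylyltransferase leaves on these tails, the pooled share was -24.5 points different (-33.8 to -16.1), lower in urt1, beside -24.8 points over all genes. Without TIP2 the difference was -18.2 points (-28.3 to -9.67), and with identical reads counted once it was -15.9 points (-28.5 to -4.45). With at least 10 tails required in both libraries, 6 aquaporins could be compared, and 4 of them differed by 10 points or more, each of them lower in urt1. Over all genes of the table, 57.3% of 143 genes differed by that much in either direction. The median difference was -33.2 points over the 6 aquaporins and -12.1 points over the 143 genes. A difference of this size was thus common in the table, and the count by itself does not set the aquaporins apart.

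TIP2 had 26 uridylated of 220 tails in urt1 (11.8%, 7.87 to 16.8) and 15 of 23 in WT (65.2%, 42.7 to 83.6), a difference of -53.4 points (-69.8 to -32.5). PIP1;4, a plasma membrane aquaporin, had 0 of 28 in urt1, which allows up to 10.7%, and 7 of 10 in WT (70.0%, 34.8 to 93.3), a difference of -70.0 points (-89.2 to -37.4). PIP3 had 6 of 31 in urt1 (19.4%) and 9 of 15 in WT (60%), a difference of -40.6 points (-63.2 to -11.1). These 3 genes carried U on most of their short tails in WT, and TIP2 stood above 86.5% of the 170 genes with at least 10 WT tails. On distinct tails, where identical reads of a gene count once, the difference was -28.8 points for TIP2 (-52.8 to -1.94) and -66.7 points for PIP1;4 (-87.9 to -28.7). That of PIP3 was then -32.0 points, with an interval that takes in 0 (-61.2 to 5.36).

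PIP1B, which takes part in leaf water transport, had 1 of 35 in urt1 (2.86%) and 4 of 14 in WT (28.6%), a difference of -25.7 points (-51.9 to -5.21). PIP1C had 12 of 59 in urt1 (20.3%) and 3 of 11 in WT (27.3%), and the interval of its difference, -6.93 points, ran from -37.4 to 14.3. PIP1C in urt1 stood above 91.0% of the 801 genes with at least 10 urt1 tails, and PIP3 above 89.5%. DELTA-TIP, a water channel that also conducts ammonia, had 8 of 136 in urt1 (5.88%) and 1 of 34 in WT (2.94%), a difference of 2.94 points (-9.37 to 8.76). On distinct tails PIP1B differed by -12.9 points (-42.8 to 10.4), PIP1C by 21.4 points (-18.5 to 43.3) and DELTA-TIP by 10.1 points (-16.1 to 28.4), so that all 3 intervals take in 0 and the sign of PIP1C turned. In WT, DELTA-TIP stood above 18.2% of the 170 genes, the lowest place of the 6 aquaporins with at least 10 WT tails.

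In xrn4 against WT, which asks what loss of the exoribonuclease leaves, the pooled aquaporin share was -3.25 points different (-16.2 to 10.5), and without TIP2 7.91 points (-7.25 to 23.9). Over all genes it was 8.49 points higher in xrn4. The xrn4 library held 2 aquaporins with 10 tails or more, and they went in opposite directions. Over all genes of the table, 73.8% of 80 genes differed by 10 points or more in either direction, 41 of them higher in xrn4 and 18 lower.

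TIP2 had 6 uridylated of 25 tails in xrn4 (24.0%, 9.36 to 45.1) and 15 of 23 in WT (65.2%), a difference of -41.2 points (-61.5 to -13.1). DELTA-TIP had 9 of 18 in xrn4 (50%, 26.02 to 73.98) and 1 of 34 in WT (2.94%, 0.07 to 15.3), a difference of 47.1 points (22.9 to 68.2). The intervals of these 2 differences, over all reads, do not overlap. Of the 9 uridylated DELTA-TIP reads in xrn4, 6 were the same tail of 14 A and UU. Counted once each, distinct DELTA-TIP tails were uridylated in 4 of 9 in xrn4 and 1 of 14 in WT, and distinct TIP2 tails in 6 of 18 in xrn4 and 8 of 15 in WT. On distinct tails the difference was 37.3 points for DELTA-TIP (2.01 to 66.8) and -20 points for TIP2 (-47.7 to 12.6). The interval of TIP2 then takes in 0 and overlaps that of DELTA-TIP.

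The 7 remaining aquaporins with xrn4 reads had between 1 and 9 tails there, and PIP1C had the most uridylated ones, 5 of 9 in xrn4 against 3 of 11 in WT. PIP3 had 1 of 7 in xrn4 and 9 of 15 in WT. PIP2A, a major plasma membrane water channel, had 1 of 9 in xrn4 and 0 of 2 in WT. GAMMA-TIP had 1 uridylated of 2 tails in xrn4, and PIP1B, PIP1;4 and PIP2B had 0 of 2, 0 of 1 and 0 of 2. These counts are too small for a difference to be read.

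In urt1 xrn4 against WT the pooled share was lower by a difference of -15.0 points (-24.7 to -6.05), beside -18.3 points over all genes. It was -12.1 points without TIP2 (-22.6 to -2.83), and -5.93 points with identical reads counted once, where the interval takes in 0 (-19.2 to 6.42). Of 5 aquaporins with enough tails, 4 differed by 10 points or more, 3 lower and 1 higher in urt1 xrn4, against 54.4% of 125 genes in either direction over the table. The median difference was -23.6 points over the 5 aquaporins and -9.46 points over the 125 genes.

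PIP3 had 0 uridylated of 26 tails in urt1 xrn4, which allows up to 11.5%, and 9 of 15 in WT, a difference of -60.0 points (-80.2 to -32.5). TIP2 had 43 of 163 in urt1 xrn4 (26.4%, 19.8 to 33.8) and 15 of 23 in WT (65.2%), a difference of -38.8 points (-56.0 to -17.3). Over distinct tails the difference of TIP2 was -10.5 points with an interval across 0 (-35.8 to 16.6), and that of PIP3 -55.6 points (-81.1 to -18.7). PIP1B had 1 of 20 in urt1 xrn4 and 4 of 14 in WT, and its interval reached 0 (-49.97 to 1.54 points). DELTA-TIP was the gene that was higher, with 12 of 77 in urt1 xrn4 (15.6%) and 1 of 34 in WT (2.94%), though the interval of that difference, 12.6 points, ran from -0.95 to 22.7, and on distinct tails it was 24.9 points (-3.61 to 45.3). PIP1C differed by 0.80 points, with 16 of 57 in urt1 xrn4 (28.1%) and 3 of 11 in WT (27.3%). The comparisons of urt1, xrn4 and urt1 xrn4 with WT share the WT library, so their differences are not independent.

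Against xrn4, the pooled share in urt1 xrn4 was lower by a difference of -11.8 points (-23.5 to -1.65), and of -20 points without TIP2 (-34.3 to -7.46). On distinct tails it was -3.69 points, and the interval takes in 0 (-19.0 to 9.68). Over all genes the difference was -26.8 points. Of the 2 comparable aquaporins 1 differed by 10 points or more, against 70.7% of 133 genes over the table. DELTA-TIP had 12 of 77 in urt1 xrn4 (15.6%, 8.32 to 25.6) and 9 of 18 in xrn4 (50%), a difference of -34.4 points (-56.4 to -11.3). TIP2 had 43 of 163 in urt1 xrn4 (26.4%) and 6 of 25 in xrn4 (24.0%), a difference of 2.38 points (-18.0 to 16.8). DELTA-TIP was lower in the double mutant by an interval below 0 over all reads, while the interval of TIP2 takes in differences of either sign. On distinct tails the difference of DELTA-TIP was -12.4 points and its interval also takes in 0 (-44.9 to 19.8). Its uridylated share was then 32% in urt1 xrn4 and 44.4% in xrn4, so the urt1 xrn4 share moved more.

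Against urt1, the pooled share in urt1 xrn4 was 9.52 points higher (5.15 to 14.1), and 6.10 points higher without TIP2 (1.15 to 11.5). On distinct tails it was 10 points higher (1.34 to 18.8). Over all genes it was 6.50 points higher. This pair has the deepest libraries and 7 comparable aquaporins, of which 1 was higher and 1 lower by 10 points or more, against 34.2% of 415 genes in either direction over the table. The median difference was 2.14 points over the 7 aquaporins and also 2.14 points over the 415 genes.

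TIP2 had 43 of 163 in urt1 xrn4 (26.4%) and 26 of 220 in urt1 (11.8%), a difference of 14.6 points (6.67 to 22.7). DELTA-TIP had 12 of 77 in urt1 xrn4 (15.6%) and 8 of 136 in urt1 (5.88%), a difference of 9.70 points (1.37 to 19.8). PIP3 went the other way, with 0 of 26 in urt1 xrn4 and 6 of 31 in urt1 (19.4%), a difference of -19.4 points (-36.3 to -2.95). Over all reads, the tonoplast genes TIP2 and DELTA-TIP were thus higher in urt1 xrn4 by an interval above 0, and the plasma membrane gene PIP3 lower by an interval below 0. Counted on distinct tails, all 3 intervals take in 0: the difference was 18.4 points for TIP2 (-0.33 to 35.4), 14.8 points for DELTA-TIP (-8.01 to 36.6) and -23.5 points for PIP3 (-47.3 to 3.22). PIP1C differed by 7.73 points (-7.83 to 23.0), with 28.1% in urt1 xrn4 and 20.3% in urt1. PIP1B and PIP2A differed by 2.14 and 0.09 points, with 1 of 20 and 1 of 24 tails uridylated in urt1 xrn4 and 1 of 35 and 2 of 49 in urt1. GAMMA-TIP, the close relative of TIP2, had 0 of 29 uridylated tails in urt1 xrn4, which allows up to 10.3%, and 0 of 10 in urt1. The 3 genes left out for too few tails were PIP1A, with 3 of 4 in urt1 xrn4 and 0 of 9 in urt1, PIP1;4, with 1 of 4 in urt1 xrn4 and 0 of 28 in urt1, and PIP2B, with 1 of 9 in urt1 xrn4 and 0 of 10 in urt1.

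**Figure D2:**
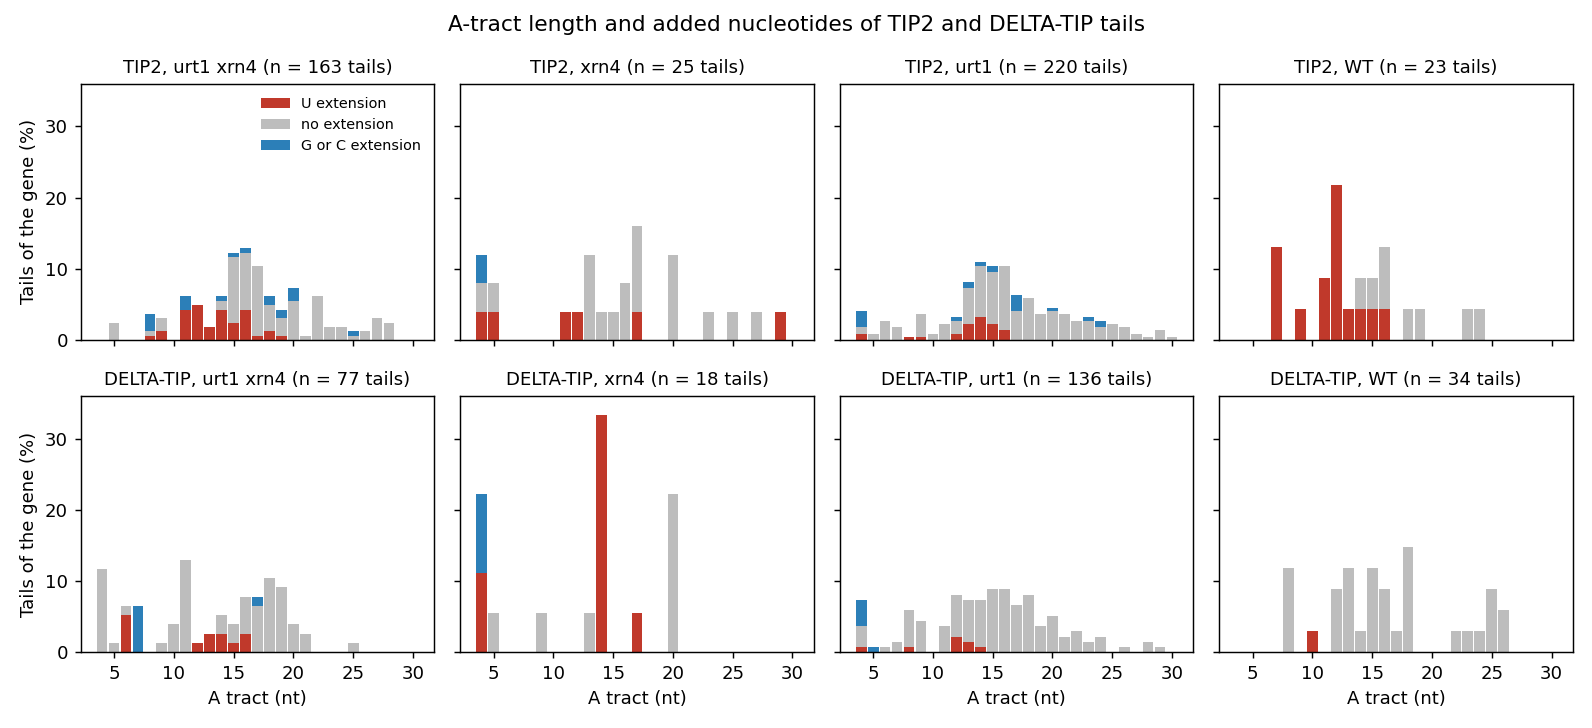
Share of a gene's tails (y axis, percent) at each A-tract length (x axis, nt) for TIP2 (top) and DELTA-TIP (bottom), 1 panel per library in the order urt1 xrn4, xrn4, urt1, WT. Red marks tails with a U extension, grey tails without extension and blue tails with a G or C extension. WT tails of TIP2 at 7 to 13 A are all red, and 6 of 18 DELTA-TIP tails in xrn4 are 14 A with UU.

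The number of added U also differed between libraries. A single U was on 50 of the 78 uridylated aquaporin tails in urt1 xrn4 (64.1%, 52.4 to 74.7), 11 of 23 in xrn4 (47.8%, 26.8 to 69.4), 28 of 55 in urt1 (50.9%, 37.1 to 64.7) and 9 of 39 in WT (23.1%, 11.1 to 39.3). In WT 2 U were commoner, on 26 of 39, and 3 or more U were on 4. Only U were counted here, not the A of mixed extensions, so these values do not give the length of the extension. In urt1 xrn4, for instance, the tails with 1 U include 14 with AU and 12 with AAU. Over all genes a single U was on 52.6% of uridylated tails in urt1 xrn4, 24.5% in xrn4, 69.4% in urt1 and 32.8% in WT. Extensions of 3 or more U were 7 of 78 in urt1 xrn4, 0 of 23 in xrn4 (which allows up to 13.0%), 0 of 55 in urt1 (up to 5.45%) and 4 of 39 in WT, and the 4 in WT were all on PIP1;4.

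Counted in the same way, 28 of 43 uridylated TIP2 tails had 1 U in urt1 xrn4, 1 of 6 in xrn4, 8 of 26 in urt1 and 2 of 15 in WT. TIP2 in urt1 mostly carried 2 U, as in WT, and TIP2 in urt1 xrn4 mostly 1. For DELTA-TIP, 11 of 12 had 1 U in urt1 xrn4, 2 of 9 in xrn4, 7 of 8 in urt1 and 1 of 1 in WT. Extensions that mixed U and A were 29 of 78 in urt1 xrn4 (37.2%, 26.5 to 48.9), 8 of 23 in xrn4 (34.8%, 16.4 to 57.3), 10 of 55 in urt1 (18.2%, 9.08 to 30.9) and 5 of 39 in WT (12.8%, 4.30 to 27.4). Over all genes such mixed extensions were 26.8% of uridylated tails in urt1 xrn4, 17.7% in xrn4, 29.3% in urt1 and 13.1% in WT. Thus urt1 was highest over all genes and urt1 xrn4 among the aquaporins, but the intervals of the aquaporin shares overlap one another. Of the 5 uridylated PIP1C tails in xrn4, 4 were of 7 A with 1 A and 1 U added. No source used here says in which order mixed extensions are written, and they are described by composition.

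G extensions were on 33 of 413 aquaporin tails in urt1 xrn4 (7.99%, 5.56 to 11.0), 13 of 75 in xrn4 (17.3%, 9.57 to 27.8), 22 of 587 in urt1 (3.75%, 2.36 to 5.62) and 1 of 115 in WT (0.870%, 0.02 to 4.75). Over all genes they were on 6.004% in urt1 xrn4, 5.59% in xrn4, 5.94% in urt1 and 4.93% in WT. The xrn4 value lay above that of all genes and rested on few reads: 5 of the 13 were the 4 A with GGG tail of PIP2A printed above. C extensions were on 15 of 413 tails in urt1 xrn4, 1 of 75 in xrn4, 15 of 587 in urt1 and 0 of 115 in WT, which allows up to 2.61%.

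**Figure D3:**
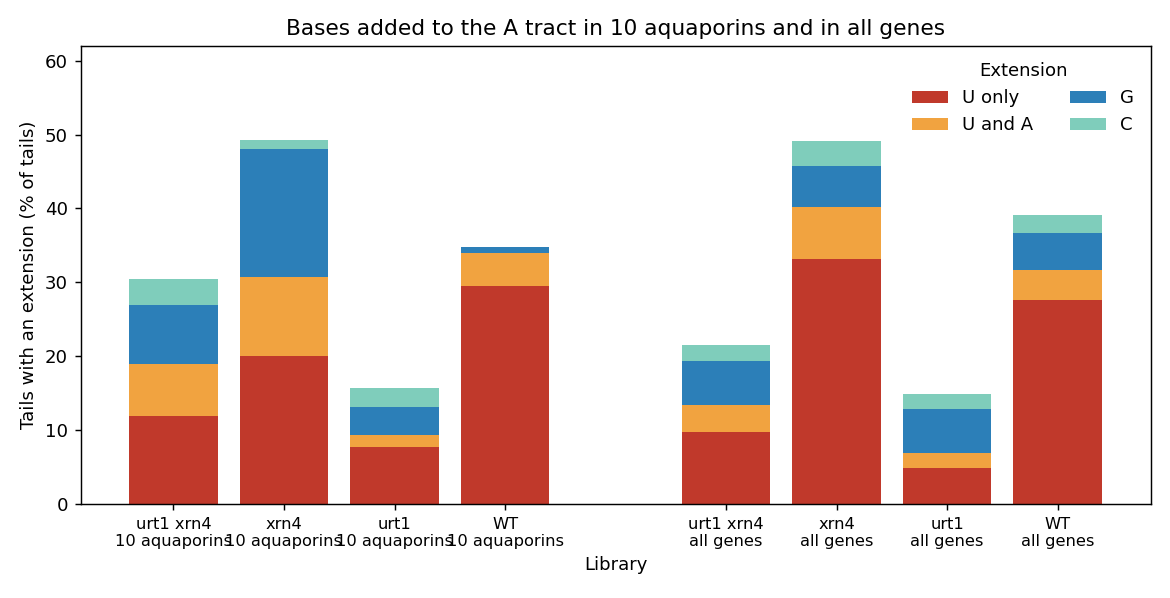
Tails with an extension as percent of tails (y axis) in each library (x axis), for the 10 aquaporins on the left and all genes on the right, stacked by the bases added. G extensions reach 17.3% of aquaporin tails in xrn4 and 0.870% in WT. The bars show 1 library each and carry no error.

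The A tract of aquaporin tails averaged 14.4 ± 5.67 nt in urt1 xrn4, 12.8 ± 6.58 nt in xrn4, 15.2 ± 5.63 nt in urt1 and 15.3 ± 5.79 nt in WT (SD over reads of 1 library). Tracts of 4 to 9 A were 21.3% of tails in urt1 xrn4 (17.5 to 25.6), 32.0% in xrn4 (21.7 to 43.8), 17.7% in urt1 (14.7 to 21.1) and 14.8% in WT (8.85 to 22.6). The xrn4 tails were the shortest, and the interval of their short class overlaps those of urt1 xrn4 and of WT. The mean was shorter in xrn4 than in WT (difference -2.44 nt, SE 0.93 over reads), beside -1.69 nt over all genes. It differed by -0.86 nt in urt1 xrn4 against WT (SE 0.61), by -0.12 nt in urt1 against WT (SE 0.59), by 1.58 nt in urt1 xrn4 against xrn4 (SE 0.81) and by -0.74 nt in urt1 xrn4 against urt1 (SE 0.36). TIP2 weighs on these values, and without it the difference was -3.95 nt in xrn4 against WT (SE 1.07), -2.68 nt in urt1 xrn4 against WT (SE 0.72), -0.93 nt in urt1 against WT (SE 0.69), 1.28 nt in urt1 xrn4 against xrn4 (SE 0.93) and -1.75 nt in urt1 xrn4 against urt1 (SE 0.46).

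TIP2 tracts averaged 16.6 nt in urt1 xrn4, 15.1 nt in xrn4, 15.9 nt in urt1 and 13.7 nt in WT, so WT had its shortest. DELTA-TIP tracts averaged 12.9 nt in urt1 xrn4, 12.4 nt in xrn4, 14.5 nt in urt1 and 16.3 nt in WT, so WT had its longest. In both genes the library with the largest uridylated share was the one with the shortest mean tract. Its rank against the next shortest library is within error. Against WT, TIP2 differed by 2.16 nt in urt1 (SE 1.01) and 2.91 nt in urt1 xrn4 (SE 1.02). DELTA-TIP differed from WT by -3.88 nt in xrn4 (SE 1.70), -3.39 nt in urt1 xrn4 (SE 1.13) and -1.78 nt in urt1 (SE 1.05). With identical reads counted once, TIP2 differed by 0.77 nt in urt1 and 1.08 nt in urt1 xrn4. TIP2 in xrn4 against WT differed by 1.38 nt (SE 1.70), and by -0.57 nt with identical reads counted once. DELTA-TIP in urt1 xrn4 against xrn4 differed by 0.49 nt (SE 1.55). PIP1C averaged 11.7 nt in urt1 xrn4, 9.89 nt in xrn4, 15.2 nt in urt1 and 15.6 nt in WT, and was shorter in urt1 xrn4 than in urt1 (difference -3.55 nt, SE 0.90). Over the 10 genes, uridylated and bare tails had median tracts of 13 and 16 nt in urt1 xrn4, 12 and 15.5 nt in xrn4, 13 and 16 nt in urt1, and 13 and 17 nt in WT. Uridylated aquaporin tails were shorter than bare ones in each of the 4 libraries.

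The aquaporins' share of short-tailed reads was 15703 CPM in urt1 xrn4 (14236 to 17280), 7655 CPM in xrn4 (6026 to 9587), 13528 CPM in urt1 (12462 to 14660) and 11161 CPM in WT (9223 to 13382). It was 2.05-fold higher in urt1 xrn4 than in xrn4 (log2 1.03, 0.68 to 1.41) and 0.69-fold in xrn4 against WT (log2 -0.54, -0.98 to -0.11). It was 1.41-fold in urt1 xrn4 against WT (log2 0.49, 0.19 to 0.80). It was 1.21-fold in urt1 against WT (log2 0.27, -0.01 to 0.58) and 1.16-fold in urt1 xrn4 against urt1 (log2 0.22, 0.03 to 0.40). Without TIP2 it was 1.86-fold in urt1 xrn4 against xrn4 (log2 0.89, 0.45 to 1.37) and 0.57-fold in xrn4 against WT (log2 -0.80, -1.33 to -0.29). The other 3 ratios had intervals across 0 without TIP2, at 1.06-fold in urt1 xrn4 against WT (log2 0.09, -0.26 to 0.45), 0.947-fold in urt1 against WT (log2 -0.08, -0.41 to 0.27), where the direction turned, and 1.12-fold in urt1 xrn4 against urt1 (log2 0.17, -0.07 to 0.40). The green-tissue markers' sum, given above, was lowest in urt1 xrn4 and highest in xrn4, the reverse of the aquaporins, and its part in these ratios was not tested. RCA (4487 CPM in urt1 xrn4, 17760.5 CPM in xrn4, 7813 CPM in urt1 and 16887 CPM in WT) and RBCS1A had the order of the sum. CAB1 and CAB3 did not: CAB1 was higher in urt1 (9679 CPM) than in WT (6599 CPM). CAB3 was highest in urt1 xrn4 (9582 CPM) and lowest in WT (8055 CPM). Scaling by TMM uses a trimmed mean of log2 ratios over genes with reads in both libraries. It raises every log2 ratio by 0.82 in urt1 against WT, 0.42 in urt1 xrn4 against WT and 0.38 in urt1 xrn4 against xrn4. The change is -0.21 in urt1 xrn4 against urt1. Before TMM, the median of all tested genes was 0.31 in urt1 against WT and 0.50 in urt1 xrn4 against WT. It was 0.26 in urt1 xrn4 against xrn4, and TMM moved all of these medians further from 0.

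**Figure D4:**
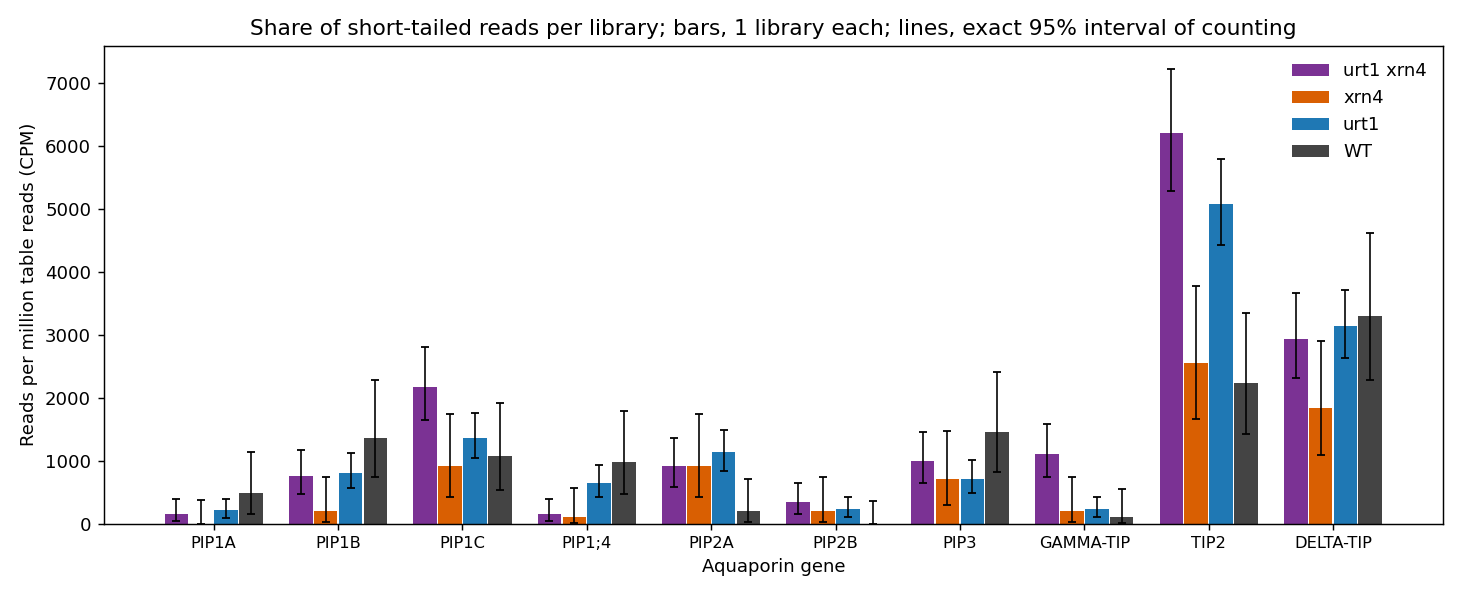
Share of a library's table reads (y axis, CPM) for each of the 10 aquaporins (x axis), with 1 bar per library in the order urt1 xrn4, xrn4, urt1, WT and exact 95% intervals of counting as lines. TIP2 stands at 6198 CPM in urt1 xrn4 and 5070 CPM in urt1, above 2552 CPM in xrn4 and 2232 CPM in WT.

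TIP2 had 6198 CPM in urt1 xrn4, 2552 CPM in xrn4, 5070 CPM in urt1 and 2232 CPM in WT. Both libraries with the urt1 allele were high and the other 2 low: the log2 ratio was 1.16 in urt1 against WT (0.56 to 1.87), 1.45 in urt1 xrn4 against WT (0.84 to 2.171) and 1.26 in urt1 xrn4 against xrn4 (0.67 to 1.95). It was 0.29 in urt1 xrn4 against urt1 (-0.01 to 0.59) and 0.19 in xrn4 against WT (-0.68 to 1.08). With each distinct tail counted once the log2 ratio was 0.05 in urt1 against WT, 0.68 in urt1 xrn4 against WT and 0.23 in urt1 xrn4 against xrn4. Such counting can lower the ratio of a deeper to a shallower library even where no read is a copy. Copied reads and depth cannot be told apart in these values.

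PIP2A had 913 CPM in urt1 xrn4, 919 CPM in xrn4, 1129 CPM in urt1 and 194 CPM in WT, from 24, 9, 49 and 2 reads. Its CPM was lowest in WT. The log2 ratio was 2.23 in urt1 against WT (0.61 to 5.63) and 1.94 in urt1 xrn4 against WT (0.22 to 5.36). In xrn4 against WT the reads were under the minimum for a ratio, and the interval takes in 0 (-0.03 to 5.49). Of the 9 PIP2A reads in xrn4, 5 were the same tail of 4 A and GGG. With each distinct tail counted once, the log2 ratio of PIP2A was 1.26 in urt1 against WT. GAMMA-TIP, found in expanding cells, had 1103 CPM in urt1 xrn4, 204 CPM in xrn4, 230 CPM in urt1 and 97.1 CPM in WT, from 29, 2, 10 and 1 reads. It was high in urt1 xrn4, with a log2 ratio of 2.21 against urt1 (1.18 to 3.46), 2.14 against xrn4 (0.45 to 5.55) and 2.95 against WT (0.91 to 8.86).

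DELTA-TIP had 2928 CPM in urt1 xrn4, 1837 CPM in xrn4, 3134 CPM in urt1 and 3300 CPM in WT, and no ratio of it reached 2-fold, except under TMM scaling in urt1 xrn4 against xrn4 (log2 1.02). PIP1C had 2167 CPM in urt1 xrn4, 919 CPM in xrn4, 1360 CPM in urt1 and 1068 CPM in WT. Its log2 ratio in urt1 xrn4 was 1.17 against xrn4 (0.21 to 2.44), 0.67 against urt1 (0.12 to 1.22) and 0.97 against WT (0.08 to 2.10). PIP3 had 989 CPM in urt1 xrn4, 715 CPM in xrn4, 714 CPM in urt1 and 1456 CPM in WT, with a log2 ratio of -1.05 in urt1 against WT (-1.96 to -0.03). PIP1;4 had 152 CPM in urt1 xrn4, 102 CPM in xrn4, 645 CPM in urt1 and 970.5 CPM in WT, with a log2 ratio of -1.94 in urt1 xrn4 against urt1 (-4.06 to -0.57). Under TMM scaling PIP3 missed 2-fold in urt1 against WT (log2 -0.23), and PIP1;4, at log2 -0.63 in that comparison on the CPM scale, changed side (log2 0.18). PIP1C passed 2-fold there under TMM (log2 1.11). TMM raises every gene of the table by log2 0.82 in that comparison, so these changes are not particular to the aquaporins. PIP1B was lowest in xrn4, with 760 CPM in urt1 xrn4, 204 CPM in xrn4, 807 CPM in urt1 and 1359 CPM in WT, from 20, 2, 35 and 14 reads. Its log2 ratio of 1.61 in urt1 xrn4 against xrn4 had an interval across 0 (-0.14 to 5.04). PIP1A and PIP2B had 9 and 10 reads or fewer in every library.

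Counted by a 2-fold difference over genes with at least 20 reads in both libraries together, 3 of 7 aquaporins differed in urt1 against WT (TIP2 and PIP2A higher, PIP3 lower), beside 36.8% of 440 genes. In xrn4 against WT 0 of 4 did, beside 37.0% of 138 genes. In urt1 xrn4 against WT 3 of 7 did, all higher (TIP2, PIP2A and GAMMA-TIP), beside 46.0% of 315 genes. In urt1 xrn4 against xrn4 4 of 7 did, all higher (TIP2, GAMMA-TIP, PIP1C, and PIP1B with an interval that takes in 0), beside 52.6% of 327 genes. In urt1 xrn4 against urt1 2 of 8 did (GAMMA-TIP higher, PIP1;4 lower), beside 28.1% of 598 genes. Apart from xrn4 against WT, where 4 genes are few, these shares are near those of the table, so they single out no property of the aquaporins. The median log2 ratio of the tested aquaporins was -0.09 in urt1 against WT, -0.51 in xrn4 against WT, 0.97 in urt1 xrn4 against WT, 1.17 in urt1 xrn4 against xrn4 and 0.11 in urt1 xrn4 against urt1. That of all tested genes was 0.31, 0.07, 0.50, 0.26 and 0.03 in the same order of comparisons. The minimum of 20 reads favours genes with a larger share in the deeper library.

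The 25 further aquaporin genes of Arabidopsis gave 24 reads in urt1 xrn4, 2 in xrn4, 30 in urt1 and 3 in WT, from 9 genes in all. PIP1;5 had 13, 1, 2 and 0 reads in that order of libraries and PIP2E (PIP2;6) had 9, 0, 11 and 3. Of these 25 genes, PIP2E could be compared by a 2-fold difference in 1 pair, urt1 xrn4 against urt1, and did not reach it (log2 0.45, -1.02 to 1.84). Among the proton pumps that energise the same membranes, AVP1, a vacuolar pyrophosphatase, had 16, 5, 34 and 4 reads, AHA1, a plasma membrane ATPase, had 6, 1, 15 and 1, and VHA-A, a subunit of the vacuolar ATPase, had 1, 2, 14 and 0. No ratio of AVP1 or AHA1 reached 2-fold in the pairs with enough reads. AVP1 had 5 of 16 tails uridylated in urt1 xrn4, 0 of 5 in xrn4, 0 of 34 in urt1 and 1 of 4 in WT.

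The genes whose uridylated shares over the 4 libraries were closest to TIP2 were sought among the 33 others with at least 20 tails in every library, by the sum of absolute differences in points. FBA1 (AT2G21330), a chloroplast fructose-bisphosphate aldolase, was closest at 35.2 points, with 14.2% in urt1 xrn4, 11.1% in xrn4, 9.01% in urt1 and 57.9% in WT. LHCB2.1 (AT2G05100) followed at 52.0 points, with 17.5% in urt1 xrn4, 25% in xrn4, 12.5% in urt1 and 23.8% in WT, and LHB1B2 (AT2G34420) at 62.1 points, with 11.0% in urt1 xrn4, 30.5% in xrn4, 12.5% in urt1 and 25.7% in WT. Both are light-harvesting proteins of the chloroplast. The medians of the 34 genes compared, TIP2 included, were 11.0% in urt1 xrn4, 30.3% in xrn4, 6.89% in urt1 and 17.8% in WT. The 3 genes were chosen for this likeness, which is a description.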

How the data were processed

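Per the file headers, each line of the deposited table is 1 read with its genotype, gene locus, A-tract length in nucleotides and added bases. The authors gave no normalised value. The submitters' processing notes name build TAIR10, bedtools 2.17.5, Bowtie2, TopHat2 2.0.9 and CASAVA 1.8.2, without their roles. The genotype column names urt1 xrn4 by its initials. Names and coding sequences came from RefSeq's annotation of TAIR10.1, which held 8310 of the 8346 loci.

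The 10 members and the gene lists were chosen with earlier results of these data known. Of the lists, the genes named were those with at least 10 reads, the markers, the targeted genes and the 3 genes closest to the aquaporin with the most reads. RD28, which had 0 reads, was named in addition for its likeness to PIP2B, after its values were seen. Uridylated shares and mean A lengths were compared where both libraries had at least 10 tails. Read shares were compared as log2 ratios of reads scaled to the library total (CPM) with 0.5 added to each count, for genes that had 20 or more reads in a pair of libraries. A count of 0 allows 3 counts. Python 3.11.15, numpy 2.4.6, pandas 2.3.3, scipy 1.17.1, biopython 1.88 and matplotlib 3.10.9 were used. The read-share ratios, the intervals of ratios and of differences of shares, and the TMM factor were tested on simulated counts. The steps for A lengths, extensions and distinct tails were not part of that test. Alternatives were identical reads counted once, tails of 25 A or fewer, unmodified tails, medians, equal weights, TMM and median-of-ratios scaling, a pseudocount of 0.1, other minimums, and 1 lane at a time, which was chosen after seeing the data.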

Additional observations from a re-analysis of the deposited data

Results flagged for a closer look

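With 1 library per genotype the following differences between effects were not tested. They were picked out because the 2 estimates of a mutation's effect, with the other gene mutated and with it intact, had opposite signs. Where the interval or error of an estimate takes in 0, as given beside it, movement in opposite directions is not shown.

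The uridylated share of the 10 aquaporins together was 9.52 points higher in urt1 xrn4 than in urt1 and differed by -3.25 points in xrn4 against WT, with an interval across 0 (-16.2 to 10.5) and a value of 7.91 points without TIP2. For TIP2 the same comparisons gave 14.6 points in urt1 xrn4 against urt1 and -41.2 points in xrn4 against WT, both with intervals that take in 0 on distinct tails. The urt1 allele went with a difference of 2.38 points in TIP2 in urt1 xrn4 against xrn4, with an interval across 0 (-18.0 to 16.8), and of -53.4 points in urt1 against WT. For DELTA-TIP it went with -34.4 points in urt1 xrn4 against xrn4 and 2.94 points in urt1 against WT, the second with an interval across 0 (-9.37 to 8.76). On distinct tails these were -12.4 points (-44.9 to 19.8) and 10.1 points (-16.1 to 28.4). Over all reads, TIP2 and DELTA-TIP thus differed from each other in which mutant pair showed the larger difference. On distinct tails this is not shown, since both intervals of DELTA-TIP take in 0. TIP2 and DELTA-TIP had 25 and 18 tails in xrn4 and 23 and 34 in WT.

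The mean A tract of the 10 aquaporins differed by 1.58 nt in urt1 xrn4 against xrn4 (SE 0.81 over reads) and by -0.12 nt in urt1 against WT (SE 0.59). For DELTA-TIP it differed by 0.49 nt in urt1 xrn4 against xrn4 (SE 1.55) and by -1.78 nt in urt1 against WT (SE 1.05). Each of these 4 differences was less than 2 SE.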

How the results depend on the processing

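No paired analysis was possible because there was 1 library per genotype and the labels give no replicate numbers. The pooled uridylation differences kept their size within their counting intervals under the lane, tail-length and without-TIP2 settings, except that the sign of xrn4 against WT, whose interval takes in 0, turned without TIP2 (7.91 points) and with genes weighted equally (2.92 points). With identical reads counted once, the difference was -15.9 points in urt1 against WT (-28.5 to -4.45), and its interval took in 0 at -5.93 points in urt1 xrn4 against WT (-19.2 to 6.42) and -3.69 points in urt1 xrn4 against xrn4 (-19.0 to 9.68). With genes weighted equally it was 2.12 points in urt1 xrn4 against urt1. On unmodified tails only, the A tract differed by -1.35 nt in urt1 against WT and by -0.25 nt in urt1 xrn4 against xrn4. Without TIP2 it differed by -2.68 nt in urt1 xrn4 against WT and -1.75 nt in urt1 xrn4 against urt1. The medians of all 10 genes differed by 0.00 nt in urt1 xrn4 against urt1. The share of all genes past 2-fold is given for the main setting only. The counts that follow therefore show how the calls moved with the setting and do not compare aquaporins with the table. The aquaporins past 2-fold were 1 in xrn4 against WT with a pseudocount of 0.1 and 3 with no minimum of reads. They were 1 of 3 in urt1 xrn4 against WT with a minimum of 50 reads, 5 with no minimum and 0 of 5 with identical reads counted once. They were 2 of 3 in urt1 xrn4 against xrn4 and 0 of 6 in urt1 xrn4 against urt1 with a minimum of 50, where genes such as GAMMA-TIP and PIP1;4 fell under the minimum, and 0 of 3 and 0 of 6 in the same order with identical reads counted once. With identical reads counted once, 66.7% of uridylated urt1 tails had 1 U and 6.15% of urt1 tails had G. Distinct tails were 37.8% of aquaporin reads in urt1 xrn4, 65.3% in xrn4, 33.2% in urt1 and 60.9% in WT, so counting them once shrinks the deeper libraries more. It can also raise their uridylated share, which in urt1 was 16.9% of distinct tails and 9.37% of reads. For single genes, 2-fold differences were lost for PIP3 in urt1 against WT under median-of-ratios scaling (log2 -0.90) and with identical reads counted once (log2 -0.75). The 75 aquaporin reads of xrn4 and 115 of WT limit every comparison with those libraries.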
